A study of Mus musculus with 31 samples.

Results

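The genes described here are 10 SR splicing factors, taken as a set with poison exons, namely *Srsf1*, *Srsf2*, *Srsf3*, *Srsf4*, *Srsf5*, *Srsf6*, *Srsf7*, *Srsf10*, *Srsf11* and *Tra2b*. They were measured by RNA sequencing in the livers of 31 *hFIX-R29X* mice. Their choice was by gene symbol, as relatives in 1 protein family known for isoforms open to nonsense-mediated mRNA decay (NMD). The annotation read below lists such isoforms for 9 of the 10 genes, all but *Srsf10*, and a cassette exon with the stop for 6. All 10 were found among the 31172 symbols with values. These mice carry a minigene for human coagulation factor IX (*FIX*) that holds R29X, an early stop codon, and have no mouse *FIX* gene of their own. The human *transthyretin* promoter drives the minigene, mainly in hepatocytes. Mice aged 8 to 14 weeks were dosed under the skin 6 times at intervals of 5 days (weekly, by the dose entry of the labels), and the livers date from 48 h after the final dose. The vehicle group, DPBS, had 11 mice, of which 6 were female. Control-GalNAc-ASO was given at 15 mg/kg to 4 mice, 2 of them female, and at 20 mg/kg to 6 mice, 3 of them female. *Upf3b*-GalNAc-ASO was given at 10 mg/kg to 5 mice and at 20 mg/kg to another 5, with 2 females in each group. An ASO is an antisense oligonucleotide that directs the cleavage of its target RNA. GalNAc is a sugar ligand that carries it into hepatocytes, so other liver cells take up less, and the control ASO has a scrambled sequence. The comparison asks how far the mRNAs of the 10 genes move when *Upf3b*, an NMD factor, is lowered.

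SR proteins bind exons through an RNA recognition motif and recruit the spliceosome through a domain rich in arginine and serine. When an SR protein is abundant it also binds its own pre-mRNA and favours a splice form with an early stop codon, either by including an extra cassette, the poison exon, or by removing an intron behind the normal stop. A ribosome that ends translation well upstream of the last exon junction leaves an exon junction complex on the mRNA, and UPF3B links that complex to UPF1, the helicase that starts NMD. The isoform is then degraded, which lowers the total mRNA and closes a feedback loop. By the study, NMD can also occur without UPF3B, and lowering *Upf3b* changed the endogenous NMD substrates it measured in liver moderately or not at all. In liver, SRSF3 is known to be needed for hepatocytes to mature.

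The early stops of these genes were read from the GENCODE M21 annotation of the mouse genome (GRCm38). It lists 17 NMD isoforms in 9 of the 10 genes and none in *Srsf10*. In 6 genes (*Srsf3*, *Srsf4*, *Srsf6*, *Srsf7*, *Srsf11* and *Tra2b*) the stop lies in a cassette exon that the reference isoform skips. In another 3 (*Srsf1*, *Srsf2* and *Srsf5*) the exon with the stop overlaps an exon of the reference isoform. In *Srsf2* (chr11:116849901-116853094, minus strand) that stop is the normal one, and further exon junctions follow it. *Srsf10*, with no annotated NMD isoform, lies at chr4:135855747-135869908 on the plus strand. The sequences below run from the first base of each such exon to the stop codon, which is in capitals. They are shown because they hold the early stops, the coordinates are those of the printed stretch, and each is translated, by the annotation, in the reading frame of the exon before it.
*Srsf3*, a cassette of 456 bases, chr17:29039454-29039487, plus strand: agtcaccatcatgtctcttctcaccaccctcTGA
*Srsf7*, a cassette of 460 bases, chr17:80205054-80205081, minus strand: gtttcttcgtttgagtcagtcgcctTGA
*Tra2b*, a cassette of 276 bases, chr16:22259181-22259261, minus strand: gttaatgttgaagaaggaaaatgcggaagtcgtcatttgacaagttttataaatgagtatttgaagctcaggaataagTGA
*Srsf11*, a cassette of 109 bases, chr3:158024209-158024231, minus strand: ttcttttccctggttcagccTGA
*Srsf4*, a cassette of 207 bases, chr4:131884276-131884390, plus strand: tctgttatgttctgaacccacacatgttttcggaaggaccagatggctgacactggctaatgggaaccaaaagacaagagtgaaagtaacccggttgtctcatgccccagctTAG
*Srsf6*, a cassette of 268 bases, chr2:162932815-162932966, plus strand: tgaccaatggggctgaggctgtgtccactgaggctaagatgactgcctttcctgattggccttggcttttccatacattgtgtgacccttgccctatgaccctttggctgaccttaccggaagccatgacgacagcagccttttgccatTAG
*Srsf1*, an exon of 119 bases, chr11:88049977-88050015, plus strand: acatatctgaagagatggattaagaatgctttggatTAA
*Srsf5*, an exon of 266 bases, chr12:80947116-80947130, plus strand: ggcttctctgtaTAG
The stop of the *Srsf6* cassette is also the stop of an annotated shorter protein-coding isoform. In all 17 NMD isoforms the stop was at least 67 bases ahead of the last exon junction. The plot of the stops draws these distances to scale.

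**Figure D1:**
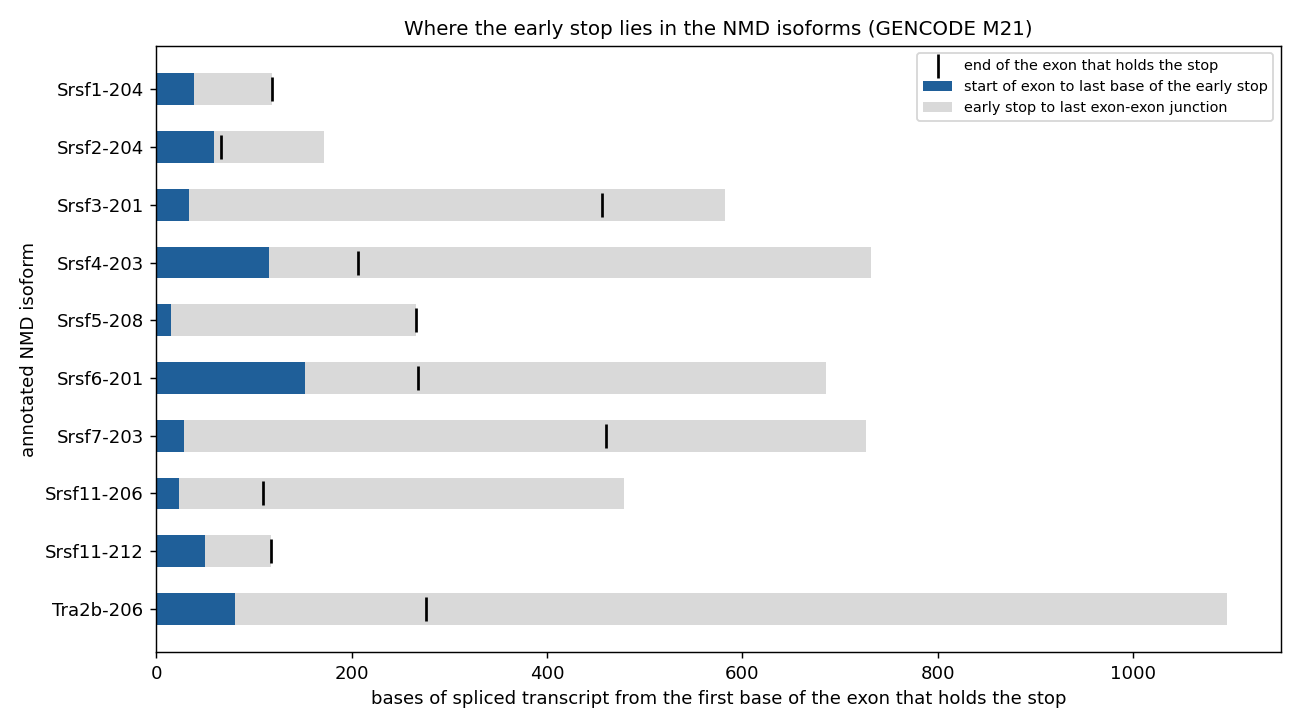
Position of the stop in 10 annotated NMD isoforms of 9 genes. The stop of *Srsf2* is the normal one, and its blue stretch starts where an isoform annotated without its coding start begins. The x axis counts bases of spliced transcript from the start of the exon that holds the stop, blue marks the stretch up to the stop, grey the stretch from the stop to the last exon junction, and the black tick the end of the exon. In the cassettes of *Srsf3*, *Srsf7* and *Srsf11* (the one of 109 bases) the stop comes 34, 28 and 23 bases into the exon, and the *Tra2b* isoform has 1015 bases between the stop and the last junction.

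The values are 1 figure per gene and mouse, in TPM, a measure of relative abundance within a mouse, and do not split a gene into isoforms. The sample labels name a library kit that reads the 3′ ends of mRNAs, whereas the study's methods name a kit that reads along whole mRNAs. By the annotation, 5 of the 17 NMD isoforms end within 50 bases of a coding isoform, in 4 genes (*Srsf1*, *Srsf2*, *Srsf11* and *Tra2b*), and the other 12 end more than 300 bases from any. The authors' index was built from Ensembl cDNA, and whether it held each of these isoforms was not checked. Where both kinds of isoform count towards the same gene value, a shift between them with an unchanged total would not be seen. The values behave as scaled reads, and those of *Srsf1*, *Srsf4*, *Srsf6*, *Srsf7* and *Srsf10* were whole multiples (within 0.02 of a read) of 1 step per mouse in 100% of the mice with a value above 0, although their reference transcripts differ in length. They were therefore not divided by transcript length, and levels are not ranked between genes here. In the remaining genes the share of mice with whole multiples was 6.45% (*Srsf3*), 12.9% (*Srsf11*), 32.3% (*Srsf5*), 67.7% (*Srsf2*) and 96.8% (*Tra2b*). Read numbers given for these genes below are therefore not all whole counts.

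By that step, libraries held 1020665 to 7391575 reads (median 3627920), and 3 reads, taken as a floor for counting error only, were worth between 0.406 and 2.94 TPM. Replicate 3 of the *Upf3b*-GalNAc-ASO group at 10 mg/kg had the fewest reads and the lowest median correlation with its own group (0.677), followed by DPBS replicate 6 (0.724), where other mice reached up to 0.897. All 7 hepatocyte markers with values were above 0 in every mouse, with sums between 16544 and 37879 TPM. Their sums had a median of 18248 TPM in the *Upf3b*-GalNAc-ASO group at 10 mg/kg and 26894 TPM in the Control-GalNAc-ASO group at 15 mg/kg, and all 7 had fitted changes below 0 there, with 0 passing by limma. At 20 mg/kg 6 of the 7 were below 0 (median -0.22, all genes -0.12), again with 0 passing. Sums of 7 sinusoidal endothelial markers were between 1555 and 2245 TPM in the *Upf3b*-GalNAc-ASO group at 20 mg/kg and between 638 and 1670 TPM in its control group, where 1 of the 7, *Pecam1*, was higher with a passing test (log2 fold change 1.27, adjusted p = 0.0201 from limma). *Pecam1* makes up most of these sums (1745 ± 208 TPM in the 5 treated and 810 ± 401 TPM, SD, in the 6 control mice), and 5 of the 7 markers had fitted changes below 0 (median of the 7 -0.080). All 4 stellate cell and fibroblast markers tested at 20 mg/kg were below 0 (median -0.52), with sums from 142 to 243 TPM against 179 to 306 TPM. Among them *Col3a1*, a fibrillar collagen gene, was past a 2-fold change at an unadjusted p no higher than 0.01 (log2 fold change -2.06, adjusted p = 0.0536 from limma). Of the Kupffer cell, stellate cell, cholangiocyte, lymphocyte and proliferation markers tested, none had an adjusted p under 0.05 in either comparison of *Upf3b*-GalNAc-ASO with Control-GalNAc-ASO groups. In bulk liver, fewer cells of a type and less RNA per cell cannot be told apart, and the part of these markers in the results below was not tested.

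The 10 genes were all expressed in these livers, and each reached the minimum for testing (a median of 5 TPM in at least 1 group) in every comparison. Over the 31 mice, *Srsf5*, whose protein takes part in insulin-responsive splicing, ranged from 337 to 1034 TPM with a median of 672 TPM. *Srsf1*, which encodes a regulator of splice site choice and mRNA export, ranged from 62.0 to 336 TPM (median 170 TPM). *Srsf11*, whose protein contacts factors bound at splice sites, ranged from 49.2 to 222 TPM (median 114 TPM). These rest on at least 344, 92.0 and 126 reads in any mouse, so counting error was small beside the spread between mice. *Tra2b*, which encodes an SR-like activator of exons rich in GAA, ranged from 41.2 to 447 TPM (median 73.3 TPM) and had the largest ratio of highest to lowest value among the genes above 0 in every mouse. *Srsf10*, whose protein represses splicing when it loses its phosphates, had a median of 56.7 TPM, *Srsf2* of 51.8 TPM, *Srsf3* of 43.7 TPM and *Srsf7* of 31.8 TPM. *Srsf6* (median 16.1 TPM) and *Srsf4* (median 12.1 TPM) rested on the fewest reads. *Srsf6* had at least 10 reads in each mouse, and *Srsf4* was listed at 0 in DPBS replicate 6, where 3 reads would be 2.51 TPM. The plot of levels by group gives every mouse, and in the comparisons tested below the groups overlapped for each of the 10 genes.

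**Figure D2:**
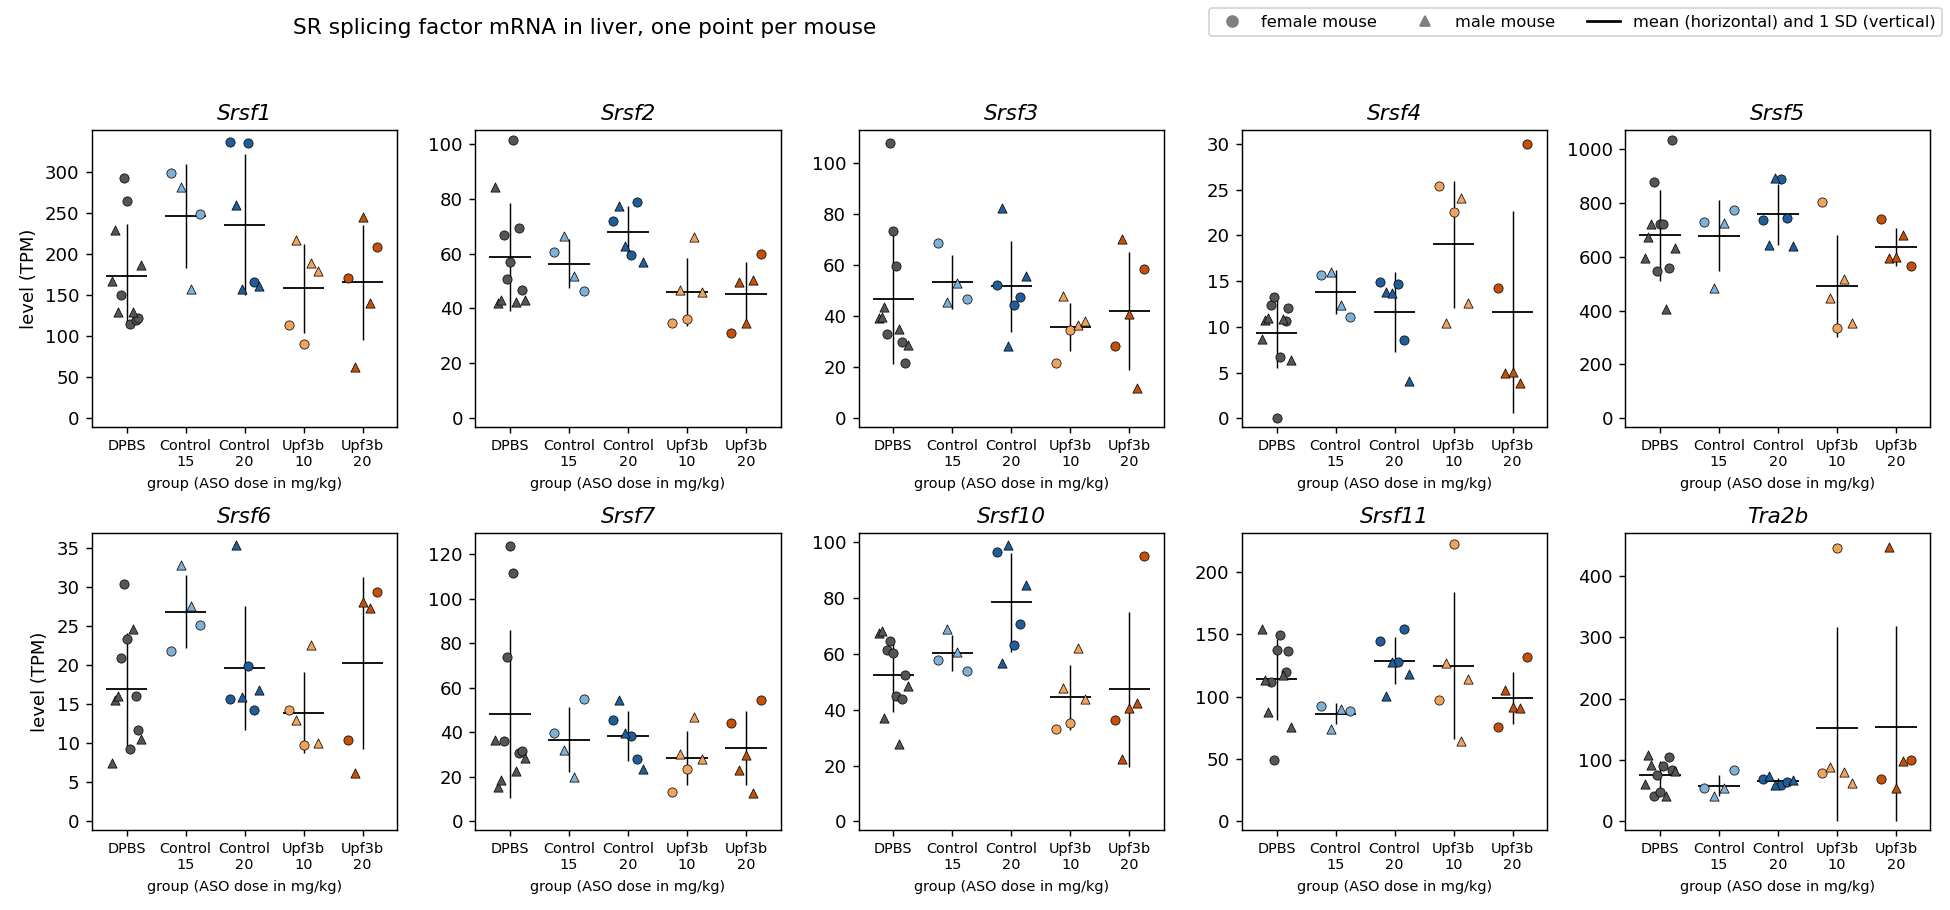
Level in TPM (y axis) of the 10 genes in each of 31 mice, by group (x axis, ASO doses in mg/kg), with circles for females and triangles for males. Horizontal bars are group means and vertical bars 1 SD, drawn no lower than 0. *Tra2b* stands at 446 and 447 TPM in 1 mouse of each *Upf3b*-GalNAc-ASO group and between 41.2 and 108 TPM in the other 29 mice.

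The target itself was checked first. *Upf3b*, the factor that reads exon junction complexes, was 5.97, 20.7, 53.7, 3.95 and 23.3 TPM in replicates 1 to 5 given *Upf3b*-GalNAc-ASO at 10 mg/kg and 66.9, 27.1, 58.5 and 78.7 TPM in replicates 1 to 4 of the Control-GalNAc-ASO group at 15 mg/kg. The groups overlapped through replicate 3 of the treated mice. The log2 fold change was -1.73 (standard error 0.61, 95% interval -3.03 to -0.42, unadjusted p = 0.0130 and adjusted p = 0.211 from limma). At 20 mg/kg it was 9.37, 2.68, 2.57, 16.7 and 7.68 TPM in replicates 1, 2, 4, 5 and 6, against a lowest, median and highest value of 85.3, 113 and 135 TPM in the control group. These groups did not overlap, and the log2 fold change was -3.87 (standard error 0.40, adjusted p = 1.59e-05 from limma). Against DPBS, where *Upf3b* ranged from 33.8 to 136 TPM (median 104 TPM), it was lower with a passing test in both treated groups, by a log2 fold change of -2.57 at 10 mg/kg (adjusted p = 0.00455 from limma) and -3.68 at 20 mg/kg (adjusted p = 3.21e-06). The Control-GalNAc-ASO group at 15 mg/kg was itself at -0.75 against DPBS (95% interval -1.47 to -0.027, adjusted p = 0.691), and the one at 20 mg/kg at 0.25 (adjusted p = 0.744). The target was thus lower with a passing test at 20 mg/kg against either comparison group, and at 10 mg/kg against DPBS but not against the control ASO.

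None of the 10 splicing factors changed with a passing test between *Upf3b*-GalNAc-ASO at 10 mg/kg (n = 5) and Control-GalNAc-ASO at 15 mg/kg (n = 4). By limma with sex as a covariate, 0 of the 10 had an adjusted p under 0.05, where 27 of all 9166 genes tested (0.295%) had one. An unadjusted p under 0.05 was found for 2 of the 10, beside 1446 of all 9166 genes. None was past a 2-fold change at an unadjusted p no higher than 0.01, as 4.81% of all genes were. No gene of the 10 separated the groups, whereas 2.08% of all genes were higher and 2.73% lower in every treated mouse. The fitted change was below 0 for 7 of the 10, beside 51.6% of all genes, and their median log2 fold change was -0.43, beside -0.027 for all genes. The doses of the groups differ, 10 against 15 mg/kg, so these are values set side by side rather than a matched dose.

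The gene with the lowest adjusted p was *Srsf6*, a regulator of alternative exons with a cassette poison exon. It was 14.3, 12.9, 9.80, 22.6 and 10.1 TPM in replicates 1 to 5 after *Upf3b*-GalNAc-ASO treatment and 21.8, 32.9, 27.6 and 25.1 TPM in replicates 1 to 4 of the control group. All treated mice but replicate 4 were below every control mouse. The log2 fold change was -0.98 (standard error 0.40, 95% interval -1.84 to -0.11, adjusted p = 0.264 from limma). The vehicle mice had *Srsf6* values from 7.45 to 30.4 TPM (median 16.0 TPM), a range that holds all 5 treated values and 3 of the 4 control values, all but 32.9 TPM.

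*Srsf1* was 113, 217, 90.1, 189 and 180 TPM in the treated mice and 298, 281, 157 and 248 TPM in the control mice. Its groups overlapped through control replicate 3, at 157 TPM. The log2 fold change was -0.71 (standard error 0.34, 95% interval -1.42 to 0.013, adjusted p = 0.322 from limma). *Tra2b* was 79.2, 88.6, 446, 80.3 and 63.1 TPM against 54.1, 41.5, 54.3 and 83.1 TPM. Only replicate 3 was above 100 TPM, and control replicate 4 lay among the other 4 treated mice. The fitted change of *Tra2b* was 1.04 on the log2 scale (95% interval 0.092 to 1.99, adjusted p = 0.277 from limma), and without replicate 3 it was 0.52 (adjusted p = 0.411). Without replicate 1 it was 1.41 with an adjusted p of 0.0554, and *Tra2b* then passed the 2-fold threshold at an unadjusted p no higher than 0.01.

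The other 7 genes had fitted changes between -0.61 (*Srsf3*) and 0.46 (*Srsf11*) and adjusted p-values between 0.397 and 0.683. *Srsf11* was 222 TPM in treated replicate 3 and between 64.2 and 127 TPM in the other 4 treated mice, beside 73.8 to 92.2 TPM in the control mice. Without replicate 3 its fitted change was 0.20 instead of 0.46. *Srsf5* was 803, 449, 337, 518 and 354 TPM in the treated mice and 729, 483, 727 and 775 TPM in the control mice, with the treated group both the highest and the lowest. *Srsf4* was 25.3, 10.4, 22.5, 24.1 and 12.6 TPM against 15.7, 16.0, 12.4 and 11.1 TPM, so 3 treated mice were above every control mouse and replicate 2 was below all of them. The 95% interval, which is not adjusted for the number of genes, excluded a 2-fold rise for 7 of the 10 genes and a 2-fold fall for 3.

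The comparison with equal doses, 20 mg/kg of *Upf3b*-GalNAc-ASO (n = 5) against 20 mg/kg of Control-GalNAc-ASO (n = 6), gave no passing test for these genes either. By limma, 0 of 10 had an adjusted p under 0.05, where 2.52% of 9376 genes did. An unadjusted p under 0.05 was found for 2 of 10, beside 1751 of all 9376 genes. None was past the 2-fold threshold at an unadjusted p no higher than 0.01, as 6.23% of all genes were, and none separated the groups, as 1.65% (higher) and 1.82% (lower) of all genes did. The fitted change was below 0 for 9 of the 10, all but *Tra2b*, beside 56.8% of all genes. Their median log2 fold change was -0.32, beside -0.12 for all genes. Scaling each mouse to an equal median moved the median of all genes by 0.10 on the log2 scale, and again all but *Tra2b* were below 0. Leaving out 1 mouse turned *Srsf6* above 0 in 3 of 11 fits, to at most 0.23 (without treated replicate 2), and *Srsf4* in 2 of 11, to at most 0.045 (without control replicate 2). The plot of differences between the ASO groups gives all 10 genes for both comparisons.

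**Figure D3:**
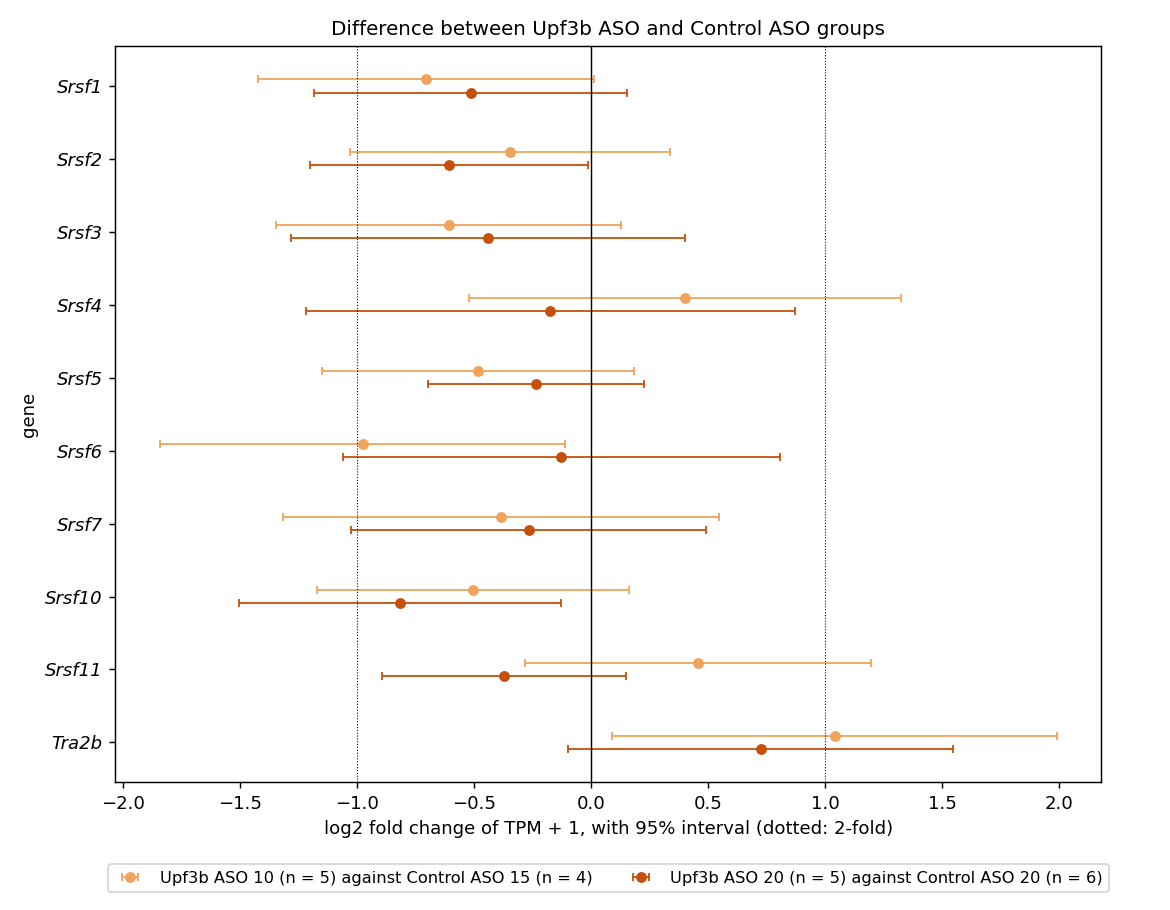
Log2 fold change of TPM + 1 (x axis, with 95% interval, not adjusted for the number of genes) of each gene (y axis) between *Upf3b*-GalNAc-ASO and Control-GalNAc-ASO groups, at 10 against 15 mg/kg (light) and at 20 against 20 mg/kg (dark). The intervals lie apart from 0 for *Srsf6* and *Tra2b* in the first comparison and for *Srsf2* and *Srsf10* in the second, and none of these passed the adjusted test.

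*Srsf10*, the gene with no annotated NMD isoform, had the lowest adjusted p at 20 mg/kg. It was 36.2, 22.5, 40.5, 42.5 and 95.01 TPM in treated replicates 1, 2, 4, 5 and 6, and its lowest, median and highest values in the control group were 56.7, 77.7 and 99.3 TPM. In the treated group 4 of 5 mice were below every control mouse, and replicate 6 was near the control maximum. The log2 fold change was -0.82 (standard error 0.33, 95% interval -1.50 to -0.13, adjusted p = 0.188 from limma). Without replicate 6 it was -1.14 with an adjusted p of 0.0844, and *Srsf10* then passed the 2-fold threshold at an unadjusted p no higher than 0.01. Vehicle mice had *Srsf10* values between 27.8 and 68.3 TPM (median 52.6 TPM), so 3 of the 4 low treated mice were inside the vehicle range.

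*Srsf2*, whose protein binds exonic enhancers and whose NMD isoforms arise by splicing behind its normal stop, was 31.1, 49.7, 34.5, 50.3 and 59.7 TPM in the treated mice. Its control values had a lowest, median and highest of 56.9, 67.4 and 78.8 TPM. Only replicate 6 reached into the control range. The log2 fold change was -0.61 (standard error 0.29, 95% interval -1.20 to -0.012, adjusted p = 0.259 from limma). *Srsf1* was 170, 62.0, 245, 140 and 208 TPM against a control range of 157 to 336 TPM (median 212 TPM), a log2 fold change of -0.51 (adjusted p = 0.402). *Srsf6*, the gene with the lowest adjusted p at the lower doses, was 10.4, 6.14, 28.1, 27.3 and 29.3 TPM against 14.2 to 35.4 TPM, and its fitted change was -0.13 (adjusted p = 0.909). Its treated mice lay on both sides of most control mice, 2 below all of them and 3 above 5 of the 6.

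*Tra2b* was 69.4, 447, 54.8, 98.2 and 100 TPM in treated replicates 1, 2, 4, 5 and 6, and its lowest, median and highest control values were 59.0, 66.4 and 73.3 TPM. In the treated group 3 mice were above every control mouse, 1 was inside the control range and 1 was below it. The fitted change was 0.73 (standard error 0.39, 95% interval -0.098 to 1.55, adjusted p = 0.335 from limma), and 0.26 without replicate 2. *Srsf3*, which encodes the smallest SR protein, was 28.5, 70.2, 40.9, 12.0 and 58.6 TPM, against 28.3 to 82.3 TPM, with only replicate 5 below every control mouse. *Srsf4* was 14.3, 4.99, 5.07, 3.91 and 30.0 TPM against 4.06 to 14.9 TPM, and its lowest value rests on 8 reads. *Srsf5*, *Srsf7* and *Srsf11* had fitted changes of -0.23, -0.27 and -0.37. The 95% interval excluded a 2-fold rise for 9 of the 10 genes, all but *Tra2b*, and lay within 2-fold in both directions for *Srsf5* and *Srsf11*.

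Set beside mice given DPBS, the 10 genes had no passing test in any of the 4 ASO groups. The 4 comparisons share the same 11 DPBS-treated mice, so their values are not independent. In *Upf3b*-GalNAc-ASO at 10 mg/kg, 0 of 10 had an adjusted p under 0.05 (0.376% of 9032 genes did) and 0 were past 2-fold at an unadjusted p no higher than 0.01 (1.88% of all genes). In *Upf3b*-GalNAc-ASO at 20 mg/kg the counts were 0 of 10 by either rule (1.13% and 3.35% of 9078 genes). In Control-GalNAc-ASO at 15 mg/kg they were 0 of 10, where 0% and 0.914% of 8971 genes passed, and in Control-GalNAc-ASO at 20 mg/kg 0 of 10, where 0% and 1.26% of 9140 genes passed. In these control comparisons 0 genes of all tested had an adjusted p under 0.05 by limma, with 644 and 905 at an unadjusted p under 0.05. For the *Upf3b*-GalNAc-ASO groups at 10 and 20 mg/kg, 747 of 9032 and 1081 of 9078 genes had an unadjusted p under 0.05. Of the 10 genes, 0, 0, 0 and 1 (*Srsf10* in Control-GalNAc-ASO at 20 mg/kg) had one in these 4 comparisons.

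The median log2 fold change of the 10 genes against DPBS was -0.21 and -0.13 in the *Upf3b*-GalNAc-ASO groups at 10 and 20 mg/kg (all genes 0.034 and 0.046), with 7 of 10 below 0 in each, where 47.3% and 46.4% of all genes were. It was 0.13 and 0.24 in the Control-GalNAc-ASO groups at 15 and 20 mg/kg (all genes 0.072 and 0.15), with 4 and 2 of 10 below 0, where 44.2% and 35.8% of all genes were. *Srsf1* ranged from 114 to 292 TPM in the vehicle mice (median 150 TPM). Its fitted difference from DPBS was 0.55 and 0.45 in the control groups (adjusted p = 0.702 and 0.549 from limma) and -0.17 and -0.10 in the *Upf3b*-GalNAc-ASO groups (adjusted p = 0.875 and 0.929). *Srsf10* differed from DPBS by 0.24 and 0.59 in the control groups and by -0.23 and -0.21 in the treated groups. For *Srsf1*, *Srsf3*, *Srsf5* and *Srsf10*, the fitted value was above DPBS in both control groups and below it in both treated groups. The share of all genes with this order was not counted, so it is not read as particular to these genes. Of their intervals, only that of *Srsf10* in Control-GalNAc-ASO at 20 mg/kg (0.12 to 1.07, adjusted p = 0.456 from limma) excluded 0. Leaving out replicate 3 at 10 mg/kg of *Upf3b*-GalNAc-ASO turned *Srsf1* there to 0.0012, and leaving out replicate 2 at 20 mg/kg turned it to 0.19. Leaving out replicate 5 at 20 mg/kg turned *Srsf3* to 0.16. *Srsf5* was at 0.025 and 0.19 in the control groups and at -0.46 and -0.032 in the treated groups, and it turned to -0.073 without replicate 3 of the control group at 15 mg/kg and to 0.059 without replicate 6 at 20 mg/kg of *Upf3b*-GalNAc-ASO. The vehicle mice were not left out in these comparisons. *Tra2b* had the opposite order, with -0.33 and -0.13 in the control groups and 0.67 and 0.60 in the treated groups. Without the mouse at 446 TPM the first of these treated values was 0.10, and without the mouse at 447 TPM the second was 0.13. *Srsf4* was highest against DPBS at 10 mg/kg of *Upf3b*-GalNAc-ASO, by 1.08 (95% interval -0.021 to 2.19, adjusted p = 0.592), and by 0.17 at 20 mg/kg.

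**Figure D4:**
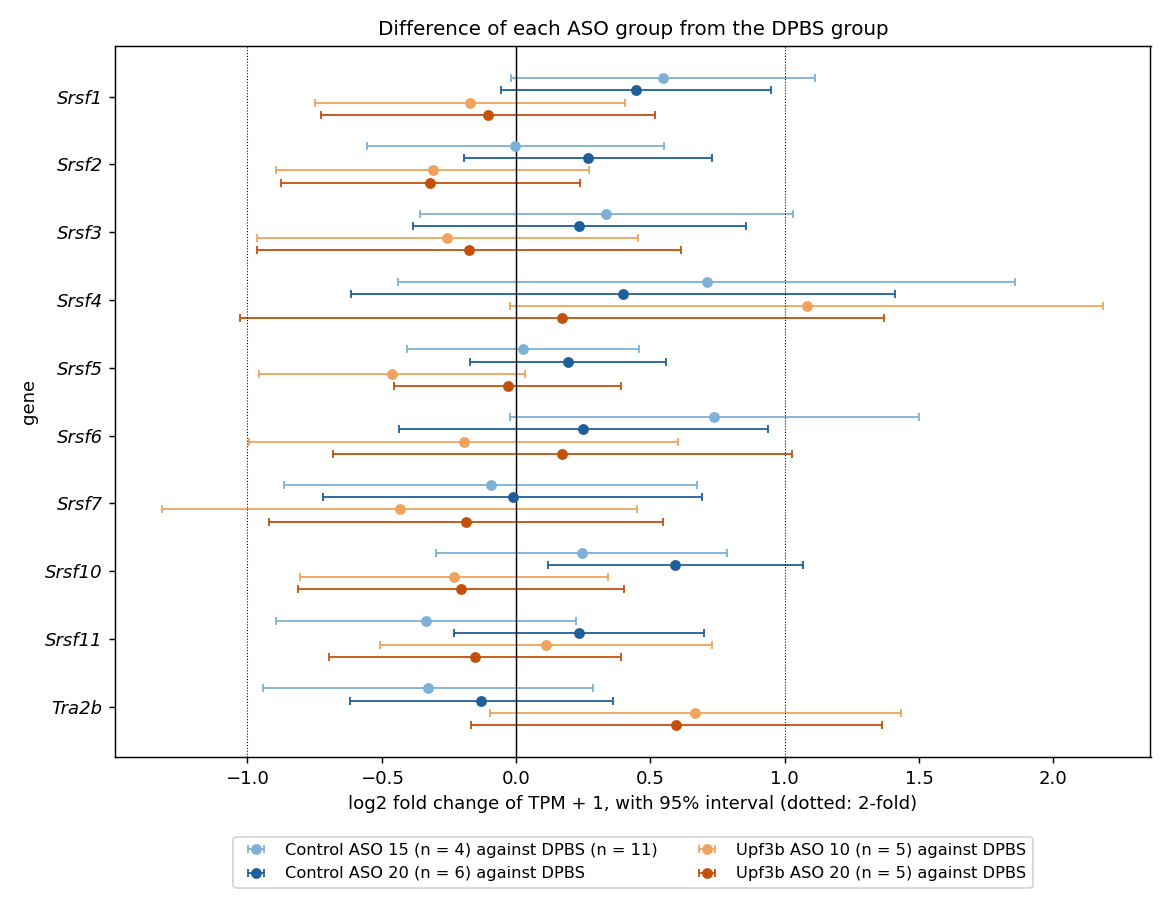
Log2 fold change of TPM + 1 (x axis, with 95% interval, not adjusted) of each gene (y axis) in the 4 ASO groups against the same 11 DPBS-treated mice. Control groups are blue and *Upf3b*-GalNAc-ASO groups orange, the darker shade being the higher dose, and most intervals lie between a 2-fold fall and a 2-fold rise (dotted lines).

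Whether the *Upf3b*-GalNAc-ASO difference itself changed between the lower and the higher doses was tested over the 4 ASO groups (20 mice). For 0 of the 10 genes did the difference of differences have an adjusted p under 0.05, and 0 of all 9797 genes had one (0%), with 799 genes and 0 of the 10 at an unadjusted p under 0.05 by limma. None of the 10 was past a 2-fold difference at an unadjusted p no higher than 0.01, as 2.04% of all genes were, and 5 of the 10 were below 0, where 53.6% of all genes were. *Srsf11* came nearest. It was lower by 0.37 than the control at the higher doses and higher by 0.46 at the lower doses, a difference of -0.81 (standard error 0.40, 95% interval -1.63 to 0.019, unadjusted p = 0.0551 from limma). *Srsf6* had the largest difference in the other direction, 0.84 (95% interval -0.41 to 2.09, adjusted p = 0.722). These intervals are wide enough to hold a 2-fold difference for each of the 10 genes in at least 1 direction.

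The highest *Tra2b* values were those of 2 mice given *Upf3b*-GalNAc-ASO. The male replicate 2 of *Upf3b*-GalNAc-ASO at 20 mg/kg had 447 TPM, from 2329 reads, and the female replicate 3 of *Upf3b*-GalNAc-ASO at 10 mg/kg had 446 TPM, from 455 reads. The other 29 mice were between 41.2 and 108 TPM (median 69.4 TPM), so the lower of the 2 was 4.12 times the next highest mouse. *Srsf1* was lowest of all 31 mice in the same 2 livers, at 62.0 and 90.1 TPM, as the plot of *Tra2b* against *Srsf1* shows. Some of the other genes ranked alike in these livers and some did not. *Srsf11* was the highest of 31 mice in the female at 10 mg/kg (222 TPM) and stood at rank 14 from the lowest in the male at 20 mg/kg (105 TPM). *Srsf4* stood at rank 28 (22.5 TPM) in the female and rank 4 (4.99 TPM) in the male. *Srsf6* and *Srsf10* were lowest of all mice in the male, at 6.14 and 22.5 TPM, and at rank 4 in the female. *Srsf7* stood at rank 7 in the male and rank 9 in the female. Depth was 5208454 reads in the male and 1020665 in the female, and *Upf3b* was 2.68 and 53.7 TPM, and the part of either in the *Tra2b* values was not tested.

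**Figure D5:**
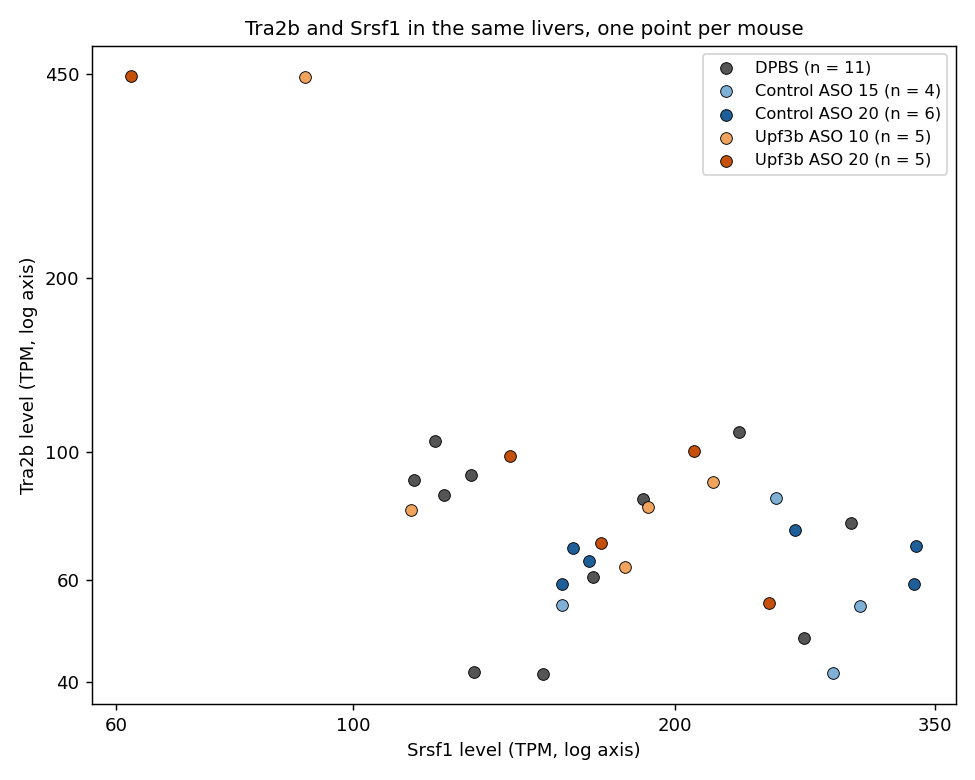
*Tra2b* (y axis) against *Srsf1* (x axis) in TPM on log axes, 1 point per mouse, coloured by group. The mice with 447 and 446 TPM of *Tra2b* are those with the lowest *Srsf1*, 62.0 and 90.1 TPM, and the other 29 mice show *Tra2b* between 41.2 and 108 TPM at *Srsf1* values up to 336 TPM.

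Sex was a covariate in the comparisons above, and its own size was read among DPBS-treated mice (5 males, 6 females). None of the 10 genes had an adjusted p under 0.05, where 1.41% of 8998 genes did, 7 of 10 were below 0 (47.7% of all genes), and 1 of 10 was past 2-fold at an unadjusted p no higher than 0.01, as 2.91% of all genes were. That gene was *Srsf7*, which encodes an SR protein with a zinc knuckle that also acts in mRNA export. The females 4, 5, 6, 7, 9 and 10 had 35.9, 73.8, 124, 111, 30.6 and 31.8 TPM, and the males 1, 2, 3, 8 and 11 had 36.5, 15.5, 18.5, 22.4 and 28.5 TPM. The 3 highest females stood above every male, and the other 3 overlapped with male 1. The log2 fold change, males against females, was -1.27 (standard error 0.41, 95% interval -2.12 to -0.42, adjusted p = 0.205 from limma). The females at 124 and 111 TPM were the vehicle mice with the fewest reads (1195885 and 1184196), and without them the change was -0.76 (adjusted p = 0.561) and no longer past 2-fold. Leaving out 1 mouse ended the 2-fold call of *Srsf7* in 6 of 11 fits, those without female 5, 6 or 7 or without male 2, 3 or 8, with changes between -1.26 and -1.06.

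Of the other splicing genes, none passed the adjusted test in the comparisons of *Upf3b*-GalNAc-ASO with Control-GalNAc-ASO, and 1 NMD factor passed in each. The SR-related genes outside the 10 (12 of 13 tested) had 9 above and 3 below 0 at 10 against 15 mg/kg (median 0.62, all genes -0.027) and 3 above and 9 below 0 at 20 mg/kg (median -0.13, all genes -0.12). The gene with the lowest p among them was *Srek1* at the lower doses, with a log2 fold change of 1.31 (adjusted p = 0.178), and *Srrm2* at 20 mg/kg, a large SR-related spliceosome protein gene, with -0.99 (adjusted p = 0.0561). *Srrm2* was 126 ± 33.2 TPM in the 5 treated and 255 ± 69.1 TPM (mean ± SD) in the 6 control mice and lower in every treated mouse. The SR protein kinases and import genes (9 of 10 tested) had medians of 0.45 and -0.30. *Srpk1*, the kinase that phosphorylates SR proteins for nuclear import, led them in both comparisons with 1.10 (adjusted p = 0.167) and 0.57 (adjusted p = 0.237).

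Splicing repressors and other regulators of the hnRNP list (29 of 29 tested) had medians of 0.11 and -0.21, led by *Mbnl2* (1.11, adjusted p = 0.237) and *Rbm10* (-1.68, adjusted p = 0.0977). Core spliceosome genes (24 and 23 of 25 tested) had medians of -0.00053 and 0.053, led by *Prpf19* (86.1 ± 53.5 TPM, n = 5, against 148 ± 11.5 TPM, n = 4, SD, adjusted p = 0.206 from limma) and *Cdc5l* (-1.33, adjusted p = 0.132). The 10 NMD factors (9 tested) had 1 gene higher with a passing test at the lower doses, *Upf2* (2.39, adjusted p = 0.0491), which did not pass with a pseudocount of 0.5, without the filter, without sex or with equal medians, and 1 lower at 20 mg/kg, *Upf3b* itself. Their medians were 0.50 and -0.48. These lists were compiled with earlier results of these data known, and the counts describe them without a test of the lists.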

How the data were processed

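RNA from 31 livers was sequenced, 1 library per mouse. The authors quantified reads with Salmon 0.7.2 against Ensembl mouse cDNA (GRCm38; the labels name GRCm38.p4) and deposited gene TPM by symbol, and the summing to genes is not given in the sources used here. The values are TPM and the inputs of the study's own model are not given, so a fit on the log scale was used instead of a count test. It gave every library the same weight, whatever its number of reads. Mice were grouped, numbered and sexed by their labels, and no 2 files were identical. All columns belonged to these mice. P-values measure only the spread between these mice.

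Tests used limma 3.58.1 in R 4.3.3 (lmFit, then eBayes with trend and robust) on log2(TPM + 1), which understates changes of low genes, with sex as a covariate, in the groups compared, for genes whose median reached 5 TPM in 1 or more groups. P-values were adjusted by Benjamini-Hochberg over all genes tested. The code was checked on simulated data. The 10 genes and all lists were chosen with earlier results of these data known. All 10 genes are named, along with *Upf3b*, and from each other list the genes that passed or else the gene with the lowest p. Early stops and sequences were read from GENCODE M21 transcripts with Python 3.11.15, and the deposited values with pandas 2.3.3. Alternatives were pseudocounts of 0.5 and 5, other filters, no sex term, equal medians, another variance model, all groups in one fit, a replicate block and leaving out each mouse of the ASO groups (and, between sexes, each vehicle mouse).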

Additional observations from a re-analysis of the deposited data

Results flagged for a closer look

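In 5 of the 40 sets tested (10 genes in 4 ASO groups of 4 to 6 mice), the highest or lowest mouse stood farther from the rest than Dixon's 95% criterion allows, where chance gives about 1 in 20. The 11 vehicle mice were too many for this criterion. *Tra2b* was 446 TPM in replicate 3 of *Upf3b*-GalNAc-ASO at 10 mg/kg, where the other 4 mice were between 63.1 and 88.6 TPM, and 447 TPM in replicate 2 at 20 mg/kg, where the others were between 54.8 and 100 TPM. *Srsf10* was 95.01 TPM in replicate 6 of *Upf3b*-GalNAc-ASO at 20 mg/kg, above the 22.5 to 42.5 TPM of the others. *Srsf6* was 35.4 TPM in replicate 2 of Control-GalNAc-ASO at 20 mg/kg, above 14.2 to 19.9 TPM in the others. *Srsf5* was 483 TPM in replicate 2 of Control-GalNAc-ASO at 15 mg/kg, below 727 to 775 TPM in the others. Each flag fell on a different mouse.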

How the results depend on the processing

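Of 1430 recomputed fold changes of the 10 genes, 1359 kept their direction, 71 turned and 0 reached an adjusted p under 0.05, over 10 other settings and 71 fits without 1 mouse. The cause was not tested for any change below. *Srsf4* and *Srsf6* rested on the fewest reads. The 95% intervals lay within 2-fold both ways for 0 and 2 of the 10 genes between *Upf3b*-GalNAc-ASO and Control-GalNAc-ASO groups, and for 6 to 8 of the 10 against DPBS. In the comparisons with DPBS, mice of the ASO groups were left out in turn and vehicle mice were not.

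At 10 against 15 mg/kg, the count of all genes with an adjusted p under 0.05 (27) was 17 and 56 with pseudocounts of 0.5 and 5, 5 without the filter, 10 without sex, 16 without trend and robust and 91 without the shallowest mice, and the 2-fold count (441) was 266 without sex. The NMD factor call was 0 with a pseudocount of 0.5, without the filter, without sex and with equal medians. At 20 mg/kg the adjusted count (236) was 67 without the filter, 60 without trend and robust and 143 without the shallowest mice. There 1 SR-related gene passed with a pseudocount of 5, and 2 NMD factors passed with equal medians.

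Whether replicate numbers pair the mice could not be settled from so few same-numbered mice. Residuals of same-numbered mice had correlations between -0.18 and 0.36 (4 pairs) and between -0.26 and 0.10 (5 pairs), and 2 of 4 and 1 of 5 were closest to their own number. With a replicate block the adjusted counts were 95 and 45. *Tra2b* then passed the 2-fold rule at the lower doses (1 gene, 1.15, adjusted p = 0.135), and *Srsf4* turned to 0.12 at 20 mg/kg.

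Against DPBS, a fit of all groups gave 62 and 163 genes for *Upf3b*-GalNAc-ASO at 10 and 20 mg/kg (34 and 103). For Control-GalNAc-ASO the adjusted count (0) was 2 at 15 mg/kg without the filter and 1 at 20 mg/kg with a pseudocount of 5, and the 2-fold count at 20 mg/kg (115) was 57 with that pseudocount and 181 without the filter. Without trend and robust the difference between doses gave 2 genes, and *Srsf7* between sexes did not pass the 2-fold rule (0 genes).

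Leaving out the 4 mice with the fewest reads was chosen after seeing the data. The 2-fold counts of the control groups then rose to 166 and 181, and 0 genes of the 10 passed between sexes. Values that turned were *Srsf1* 0.025 and *Srsf11* -0.087 (*Upf3b*-GalNAc-ASO at 10 mg/kg against DPBS), *Srsf4* -0.21 and *Srsf7* 0.027 (at 20 mg/kg), *Srsf2* 0.075 and *Srsf7* 0.16 (Control-GalNAc-ASO at 15 mg/kg), *Srsf4* -0.040 and *Srsf7* 0.27 (at 20 mg/kg), *Srsf1* -0.0096 and *Tra2b* 0.35 (difference between doses), and *Srsf4* -0.34 and *Srsf11* 0.12 (sexes).

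Leaving out 1 mouse gave 2 to 431 genes by adjusted p and 225 to 951 by the 2-fold rule at the lower doses, and 70 to 270 by adjusted p at 20 mg/kg, with 0 to 1 of the 10 genes past the 2-fold rule in each. There *Srsf4* ranged from -0.52 to 0.045 and *Srsf6* from -0.40 to 0.23. Against DPBS, *Upf3b*-GalNAc-ASO at 10 mg/kg gave -0.27 to 0.0012 for *Srsf1* and -0.14 to 0.29 for *Srsf11*. At 20 mg/kg it gave 56 to 114 genes, with *Srsf1* -0.29 to 0.19, *Srsf3* -0.44 to 0.16, *Srsf4* -0.30 to 0.38, *Srsf5* -0.077 to 0.059 and *Srsf6* -0.013 to 0.48. Control-GalNAc-ASO at 15 mg/kg gave 33 to 181 genes by the 2-fold rule, with *Srsf2* -0.13 to 0.14, *Srsf5* -0.073 to 0.14 and *Srsf7* -0.27 to 0.046. At 20 mg/kg it gave 0 to 2 genes by adjusted p and *Srsf7* -0.21 to 0.16. The difference between doses gave 0 to 13 genes by adjusted p and 113 to 407 by the 2-fold rule, with *Srsf1* -0.12 to 0.42, *Srsf3* -0.10 to 0.54, *Srsf7* -0.24 to 0.33 and *Tra2b* -0.74 to 0.33. Between sexes (mice left out after seeing the data) 0 to 1 of the 10 genes passed the 2-fold rule, with *Srsf1* -0.11 to 0.17, *Srsf4* -0.19 to 0.58, *Srsf11* -0.29 to 0.063 and *Tra2b* -0.089 to 0.26.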

Other observations

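The 2 livers with high *Tra2b* were compared with the other 29 over all genes, after their values had been seen, as a description with no test. Of 8503 genes whose median reached 5 TPM, 5 were at least 2-fold above every other mouse in both livers. Besides *Tra2b* these were *Klf6*, an early-response transcription factor, at 528 TPM in the male at 20 mg/kg and 106 TPM in the female at 10 mg/kg (other mice 3.34 to 51.3 TPM). *Chka*, choline kinase alpha, was 675 and 407 TPM (others 17.3 to 175 TPM). *Arl4a*, a small GTPase gene, was 365 and 132 TPM (others 12.1 to 46.3 TPM), and *Pnrc1*, a nuclear receptor coactivator gene, was 63.6 and 98.95 TPM (others 0.941 to 24.0 TPM). In the male alone 91 genes, and in the female alone 430 genes, were at least 2-fold above every other mouse. The female had the fewest reads of all mice (1020665) and the lowest median correlation with its own group (0.677). The male had the lowest such correlation within its group (0.794). Such counts were not made for other mice, and the part of depth or of outlying libraries in them was not tested.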
